A study of Mus musculus with 18 samples.

Results

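Cholesterol is made from acetyl-CoA in a long series of steps, and a cell balances that synthesis against uptake and export. When sterol in the endoplasmic reticulum is low, the escort protein SCAP carries the SREBP transcription factors to the Golgi, where they are cut and freed to switch on the genes of synthesis, while the INSIG proteins hold SCAP back when sterol is plentiful. When sterol is in excess, its oxidised products activate the liver X receptors (LXRs), which switch on the exporters of cholesterol. Macrophages are known for their large cholesterol traffic, since they take up lipoproteins and the membranes of dead cells, and glia are known as makers of cholesterol in the nervous system.

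The genes followed here were taken by gene name from a list chosen with earlier results of these data known. They are 32 genes of cholesterol synthesis, its control, uptake and export. They comprised 7 genes of the steps up to farnesyl diphosphate, 3 of the squalene steps, 8 of the sterol steps, 5 of the SREBP system, 1 sterol carrier, 5 genes of the LXRs and export, and 3 genes of fatty acid synthesis that SREBPs also control. All 32 had a row in both of the authors' tables, which list 13452 genes in enteric glial cells (EGCs) and 11200 genes in bone-marrow-derived macrophages (BMDMs), 14332 genes in all. All 32 also passed the filter on low values, which asked for a mean of 1 or more in any group of the table.

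The study asked how IL-1 acts on EGCs and how the medium of these cells then acts on macrophages. EGC cultures from the small bowel muscularis externa of Bl6 mice received IL-1β at 10 ng/ml for 24 h or were left as vehicle controls, with 3 libraries per group. BMDMs of Il1R1-KO mice, which lack the IL-1 receptor in all 3 groups, were kept for 3 h in RPMI, in medium conditioned by control EGCs (CM-Veh) or in medium conditioned by IL-1β-treated EGCs (CM-IL1), with 4 libraries per group and 18 libraries in all. The mice were young adults, and whether libraries of a group came from separate cultures or animals is not told. Per the same methods, BMDMs were grown in RPMI with serum and CSF-1 and EGCs in a neurobasal medium with supplements, and no group of BMDMs received EGC medium that had not been on EGCs. The base medium and what the EGCs released into it therefore cannot be told apart in either comparison with RPMI.

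The tables give 1 least-squares mean per gene and group, called the authors' mean below, and no value per library. Library depth, the precision of a mean and how far libraries of a group lay apart are therefore unknown, so no test was run on these means and no difference given here is set against replicate error. The authors' own test results in the tables were not used. Each mean is a scaled signal, the columns adding up to between 996052 and 997403, and their scaling is not stated. Ratios were computed from these means, and a gene was counted as higher or lower past a 1.5-fold ratio, the fold limit in the study's methods. The median gene had a log2 ratio of −0.14 in EGCs with IL-1β, −0.03 in BMDMs with CM-Veh, −0.19 with CM-IL1 against RPMI and −0.14 with CM-IL1 against CM-Veh, and the share of all genes past the limit is given as the background beside the first counts of each comparison.

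The labelled cell types were checked against marker genes. Of 12 macrophage markers, 12 had a row in the BMDM table, with a summed mean of 24636 in RPMI, 24585 with CM-Veh and 22370 with CM-IL1, whereas 0 of 13 glial markers had one. In EGCs 11 of 13 glial markers had a row, with a summed mean of 1796 in vehicle and 1489 with IL-1β. The glial factor gene Sox10 had a mean of 238 and 214 there. All 11 fibroblast markers were listed as well, with a summed mean of 17456 and 14762, so these cultures also held other cells. Their 9 neuronal markers summed to 572 in vehicle and 386 with IL-1β, and their 8 smooth muscle markers to 466 and 402. Values of EGCs are thus those of a mixed culture, in which fewer cells of a type and less RNA per cell cannot be told apart.

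The start sites of these genes were examined next, since most of the synthesis genes are known to be read by SREBP-2 together with the factor NF-Y. RefSeq promoter windows (GRCm38.p6, 250 bases before to 50 bases after the start) were at hand for 27 of the 32 genes, all but Fdps, Fdft1, Sqle, Stard4 and Abcg1. The windows were searched on both strands for CCAAT, the box that NF-Y binds, and for TCACNCCAC, a form of the sterol regulatory element. Matches of the 2 motifs did not overlap in Hmgcs1, the only gene with both. CCAAT was found in 21 of the 27 genes (77.8%) and in 14 of 15 synthesis genes (93.3%), the exception being Acat2. It was found in 41.1% of the 27025 genes with a window, in 43.0% of those with a row in the BMDM table, and in 39.6% of the 601 genes with a window that were higher with CM-Veh. The sterol motif was found in Hmgcs1 only among the 27, and in 1.44% of all genes. A match is a description of the letters and not a site shown to be bound, and the absence of these letters says nothing about the factor.

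The last 160 bases before the RefSeq start are shown for 6 genes on whose values the results below turn, 5 that SREBPs control and 1 exporter for contrast. Each is written 5′ to 3′ on the strand of its gene, with motif matches in capitals, CCAAT appearing as ATTGG where it lies on the other strand. Hmgcs1 lies on the plus strand at chr13:119690191-119690350, Lss on the plus strand at chr10:76531445-76531604, Cyp51 on the minus strand at chr5:4104698-4104857, Hsd17b7 on the minus strand at chr1:169969206-169969365, Fasn on the minus strand at chr11:120824548-120824707 and Abca1 on the minus strand at chr4:53159896-53160055.
Hmgcs1: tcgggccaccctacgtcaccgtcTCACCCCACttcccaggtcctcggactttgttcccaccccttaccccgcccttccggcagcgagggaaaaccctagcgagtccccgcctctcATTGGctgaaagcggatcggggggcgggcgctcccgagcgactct
Lss: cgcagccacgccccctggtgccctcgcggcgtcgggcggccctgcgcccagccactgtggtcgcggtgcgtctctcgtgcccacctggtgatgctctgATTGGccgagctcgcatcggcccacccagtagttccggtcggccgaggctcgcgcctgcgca
Cyp51: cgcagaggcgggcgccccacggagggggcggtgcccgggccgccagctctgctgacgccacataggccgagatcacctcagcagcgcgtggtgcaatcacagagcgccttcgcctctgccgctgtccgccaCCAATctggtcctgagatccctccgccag
Hsd17b7: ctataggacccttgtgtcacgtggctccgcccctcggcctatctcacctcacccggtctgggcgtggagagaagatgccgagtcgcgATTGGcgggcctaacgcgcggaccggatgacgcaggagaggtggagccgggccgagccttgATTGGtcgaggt
Fasn: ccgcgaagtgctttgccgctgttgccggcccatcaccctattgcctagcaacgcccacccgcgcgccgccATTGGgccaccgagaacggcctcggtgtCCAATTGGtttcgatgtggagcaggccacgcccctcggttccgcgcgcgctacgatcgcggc
Abca1: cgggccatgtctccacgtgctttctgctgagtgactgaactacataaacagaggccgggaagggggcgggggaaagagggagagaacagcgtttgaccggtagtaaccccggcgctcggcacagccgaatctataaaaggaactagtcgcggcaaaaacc
The Hmgcs1 stretch holds both motifs, those of Lss and Cyp51 hold 1 CCAAT box each, Hsd17b7 holds 2 and Fasn 3, of which 2 overlap, and the Abca1 stretch holds neither motif.

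In macrophages, medium conditioned by control EGCs went with higher levels of many cholesterol synthesis genes, 8 of 18 past the limit. Of the 32 genes, 9 (28.1%) were higher with CM-Veh than in RPMI, against a background of 8.00% of all genes, and 0 were lower, against 10.8%. The 18 synthesis genes held 8 of the 9, and their median log2 ratio was 0.56, beside −0.03 for all genes. The largest ratios were those of Cyp51 (2.20-fold), Fasn (2.16-fold) and Hsd17b7 (2.14-fold), which ranked 259th, 281st and 284th from the top of 11200 genes. Across the 3 macrophage groups the mean was highest with CM-Veh in 24 of the 32 genes (75%) and in 14 of 18 synthesis genes, compared with 31.8% of all genes.

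**Figure D1:**
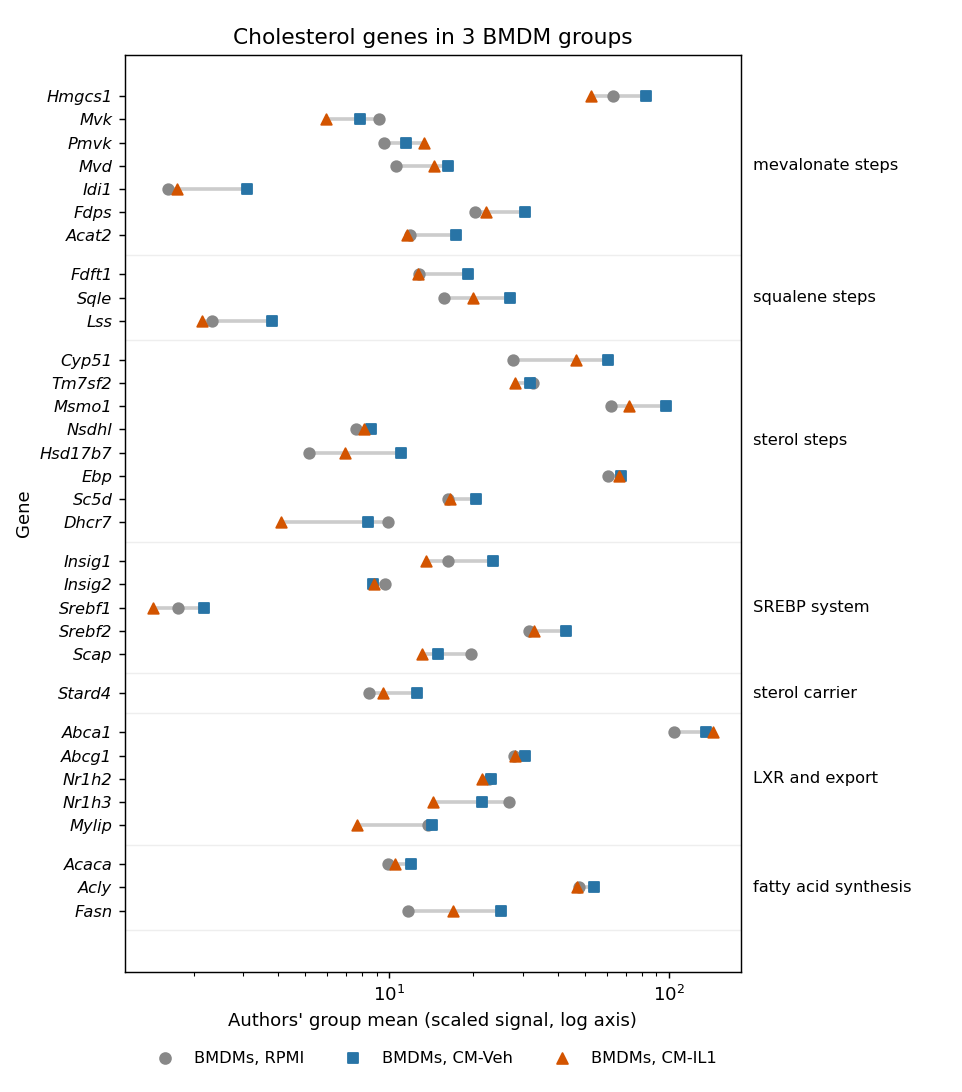
Authors' group mean of each of the 32 cholesterol genes (horizontal log axis, scaled signal) in BMDMs kept in RPMI (circles), CM-Veh (squares) or CM-IL1 (triangles), with 4 libraries behind each mean and no error bars because the tables hold none. The CM-Veh square is the rightmost symbol in 24 of the 32 genes. The CM-IL1 triangle is the leftmost in 14, among them Mylip, Dhcr7 and Nr1h3, and CM-IL1 has the lowest mean in 56.3% of all genes.

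The first steps of the pathway turn acetyl-CoA into farnesyl diphosphate. The thiolase Acat2, which joins the first acetyl units, had a mean of 11.9 in RPMI, 17.2 with CM-Veh and 11.5 with CM-IL1. Hmgcs1, the HMG-CoA synthase, had 63.0, 82.7 and 52.5. Both had their highest mean with CM-Veh and their lowest with CM-IL1, and neither passed 1.5-fold between CM-Veh and RPMI (log2 ratios of 0.54 and 0.39).

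The genes that follow were less uniform. Mvk, the mevalonate kinase, had its highest mean in RPMI, at 9.22, with 7.86 in CM-Veh and 5.93 in CM-IL1. Pmvk, which adds the next phosphate, went the other way, with 9.58, 11.5 and 13.3. These 2 kinases, which act one after the other, were the only genes of the first steps whose highest mean was not with CM-Veh.

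Mvd, the decarboxylase that makes isopentenyl diphosphate, had means of 10.6, 16.2 and 14.5. Fdps, the farnesyl diphosphate synthase, had 20.2, 30.6 and 22.1. Idi1, which isomerises isopentenyl diphosphate, had means of 1.62, 3.10 and 1.74, the lowest in this group of genes. With CM-Veh these 3 genes were higher than in RPMI by 1.53-fold, 1.52-fold and 1.91-fold. The ratio of Idi1 rests on means of 3.10 or below.

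All 3 genes of the squalene steps had their highest mean with CM-Veh. Fdft1, the squalene synthase, had means of 12.8 in RPMI, 19.1 with CM-Veh and 12.7 with CM-IL1. Sqle, the squalene epoxidase, had 15.7, 26.9 and 19.9, a 1.71-fold difference between CM-Veh and RPMI. Lss, the lanosterol synthase, had 2.32, 3.82 and 2.13, a 1.65-fold difference. Fdft1, at 1.49-fold, lay just under the limit.

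The sterol steps, which turn lanosterol into cholesterol, held both the largest differences and several genes with almost none. Cyp51, the lanosterol demethylase, had means of 27.6, 60.7 and 46.5. Hsd17b7, a keto-sterol reductase, had 5.15, 11.0 and 6.95, and Msmo1, the methylsterol monooxygenase, had 61.9, 97.6 and 72.0. In these 3 genes the CM-IL1 mean lay between the other two.

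Sc5d, a sterol desaturase, had means of 16.2, 20.5 and 16.4, and the sterol dehydrogenase Nsdhl had 7.63, 8.64 and 8.14. The sterol isomerase Ebp had 60.6, 67.5 and 66.1, and the reductase Tm7sf2 had 32.6, 31.9 and 28.2. None of these 4 passed 1.5-fold in any macrophage comparison. Dhcr7, the reductase of the last step in the branch through dehydrocholesterol, had its highest mean in RPMI, with 9.87 there, 8.36 with CM-Veh and 4.08 with CM-IL1.

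With medium from IL-1β-treated EGCs most of these genes had lower means than with CM-Veh. Of the 32 genes, 29 had a ratio below 1 between CM-IL1 and CM-Veh, as did 72.4% of all genes. Past the limit, 9 were lower (28.1%, background 8.32%) and 0 were higher (background 2.71%). The 9 were the synthesis genes Hmgcs1, Idi1, Fdft1, Lss, Hsd17b7 and Dhcr7, the control genes Insig1 and Srebf1, and the ubiquitin ligase Mylip. Dhcr7 was lowest by 2.05-fold and ranked 157th from the bottom of 11200 genes. The median log2 ratio was −0.44 for the synthesis genes and −0.14 for all genes, so the list lay 0.30 below the shift of all genes. After centring on that shift 5 of the 32 genes, and 3 of the 18, were past the limit. No share of all genes was computed after centring. Those 3 genes were Idi1, Lss and Dhcr7, with means of 3.10, 3.82 and 8.36 with CM-Veh. None of them had a mean of 10 or more in any macrophage group.

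Against RPMI, the macrophages given CM-IL1 differed less in these genes. Only Cyp51 was higher past the limit (1 of 32, background 8.46%), by 1.69-fold, and Mvk, Dhcr7, Scap, Nr1h3 and Mylip were lower (5 of 32, background 22.4%). The median log2 ratio of the synthesis genes was 0.10 while that of all genes was −0.19. Centred on the shift of all genes, 6 of the 32 were higher and 3 were lower, and the share of all genes was not computed for centred ratios. The 3 macrophage comparisons share their groups, so the values are given side by side and are not independent of each other.

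**Figure D2:**
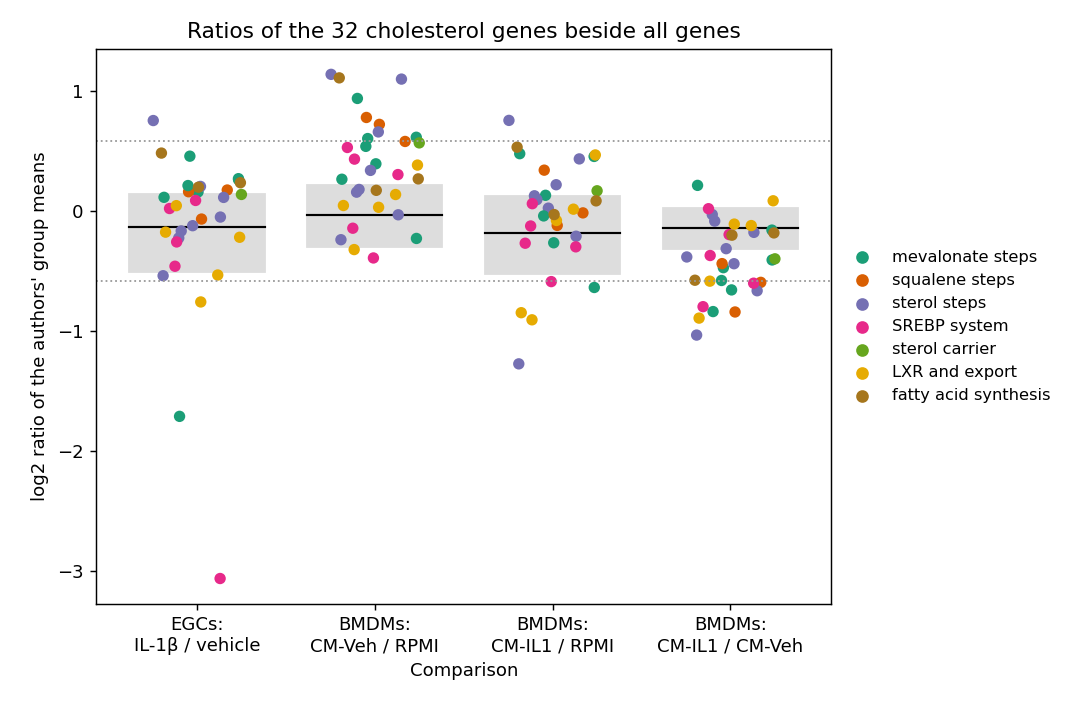
log2 ratio of the authors' group means (vertical axis) of the 32 cholesterol genes in the 4 comparisons, coloured by role, with horizontal positions spread at random for legibility. Grey boxes span the middle 50% of all genes with the median as a black line, and dotted lines mark a ratio of 1.5 in either direction. The points lie mostly above the grey box with CM-Veh against RPMI and mostly below its median with CM-IL1 against CM-Veh, and the lowest point in EGCs is Srebf1 at −3.06.

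The SREBP system itself differed less than the synthesis genes with CM-Veh, and 0 of its 5 genes passed the limit against RPMI in either direction, beside a background of 8.00% and 10.8%. Srebf2, which encodes the SREBP that mainly drives cholesterol synthesis, had means of 31.6 in RPMI, 42.7 with CM-Veh and 33.0 with CM-IL1. Insig1, itself a known SREBP target, had 16.3, 23.5 and 13.5. Srebf1, whose product mainly drives fatty acid synthesis, had low means of 1.76, 2.17 and 1.43. These 3 genes shared the order of the synthesis genes, with CM-Veh highest, and Insig1 was 1.74-fold and Srebf1 1.52-fold lower with CM-IL1 than with CM-Veh.

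The 2 other genes of the system did not follow that order. Scap, the escort, had its highest mean in RPMI, at 19.6, with 14.9 in CM-Veh and 13.0 in CM-IL1, and Insig2 had 9.65, 8.74 and 8.85. Stard4, which carries cholesterol through the cytosol and is also a known SREBP target, had 8.47, 12.5 and 9.52, a 1.48-fold difference between CM-Veh and RPMI.

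The genes of the LXR side had their own pattern. Abca1, which loads cholesterol onto apolipoproteins outside the cell, had means of 104 in RPMI, 135 with CM-Veh and 143 with CM-IL1, and was the only gene besides Pmvk with its highest mean in CM-IL1. Abcg1, the exporter to lipoprotein particles, had 27.9, 30.7 and 28.2, and Nr1h2, which encodes LXRβ, had 22.7, 23.2 and 21.5. None of these 3 passed 1.5-fold in any macrophage comparison.

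Nr1h3, which encodes LXRα, had its highest mean in RPMI, at 26.8, with 21.4 in CM-Veh and 14.3 in CM-IL1. Mylip, an LXR target whose product marks lipoprotein receptors for breakdown, had 13.8, 14.2 and 7.67. Against RPMI, CM-IL1 went with a 1.87-fold lower Nr1h3 and a 1.80-fold lower Mylip. The exporter Abca1 and the uptake inhibitor Mylip, both LXR targets, thus differed in opposite directions, by log2 ratios of 0.47 and −0.85.

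Fatty acid synthesis was represented by 3 genes. Fasn, the fatty acid synthase, had means of 11.7 in RPMI, 25.2 with CM-Veh and 16.9 with CM-IL1. Acaca, the acetyl-CoA carboxylase, had 9.90, 11.9 and 10.5, and Acly, the ATP citrate lyase that supplies acetyl-CoA, had 47.9, 53.9 and 46.9. All 3 had their highest mean with CM-Veh, and only Fasn passed the limit.

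In EGCs, IL-1β went with small differences in most synthesis genes and with large ones in Srebf1 and Idi1. Of the 32 genes, 1 was higher past the limit (3.13%, background 4.25%) and 3 were lower (9.38%, background 21.2%). The gene that was higher was Cyp51, with a mean of 39.9 in vehicle and 67.2 with IL-1β, and it was also the only one higher in macrophages with CM-IL1 against RPMI. The median log2 ratio of the 18 synthesis genes was 0.14, beside −0.14 for all genes, and 11 of the 18 had a ratio above 1, as did 37.7% of all genes.

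Srebf1 had a mean of 13.2 in vehicle and 1.59 with IL-1β, an 8.34-fold lower value that ranked 69th from the bottom of 13445 genes. Srebf2, the other SREBP gene, had 58.4 and 48.8. Fasn, a known target of the Srebf1 product, had 34.8 and 48.5, Acaca 20.3 and 23.9, and Acly 54.7 and 62.7. The 3 fatty acid genes thus had higher means with IL-1β, within 1.5-fold, while Srebf1 was lower.

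Idi1 had a mean of 8.84 in vehicle and 2.70 with IL-1β, 3.27-fold lower. Its neighbours in the pathway did not share this, since Mvd had 18.1 and 21.8 and Fdps had 49.2 and 67.5. The other genes of the first steps were also close between the groups, with 79.0 and 91.5 for Acat2, 128 and 143 for Hmgcs1, 9.19 and 11.0 for Mvk, and 9.75 and 10.5 for Pmvk. Of these 7 genes, 6 had a higher mean with IL-1β and Idi1 alone a lower one.

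Fdft1 had means of 56.3 and 63.5, Sqle 56.7 and 63.3, and Lss 10.2 and 9.77. Among the sterol steps other than Cyp51, Msmo1 had 99.3 and 114 and Hsd17b7 22.1 and 23.9. The rest of the sterol steps had a lower mean with IL-1β, within 1.5-fold. Dhcr7 differed most among them, with 15.7 and 10.8, followed by Ebp with 31.7 and 27.1, Nsdhl with 24.8 and 22.1, Sc5d with 50.0 and 45.9 and Tm7sf2 with 12.2 and 11.8.

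**Figure D3:**
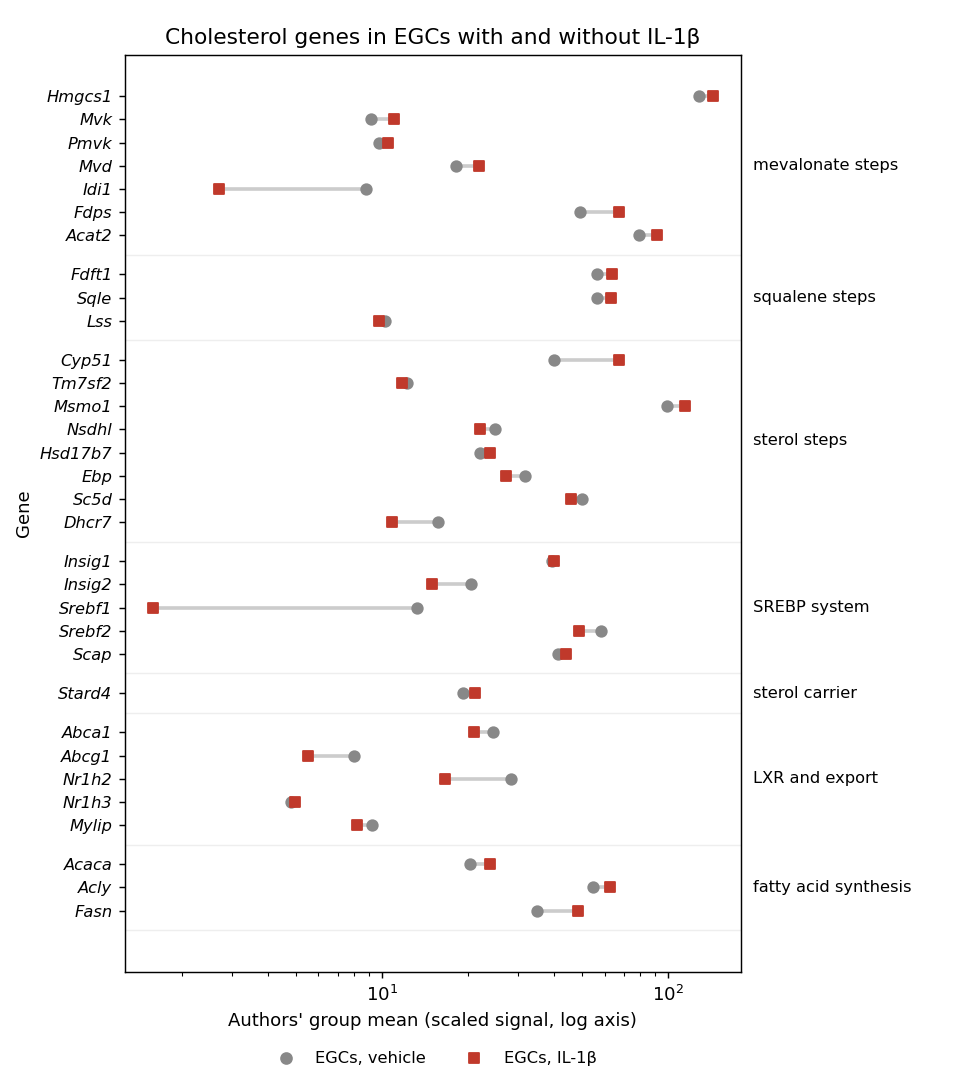
Authors' group mean of the same 32 genes (horizontal log axis, scaled signal) in EGC cultures with vehicle (circles) or IL-1β (squares), with 3 libraries behind each mean and no error bars because the tables hold none. The symbols nearly coincide in most genes, and the longest lines are those of Srebf1 (13.2 and 1.59) and Idi1 (8.84 and 2.70).

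In the control and export genes of EGCs, Nr1h2 was 1.69-fold lower with IL-1β, with means of 28.2 and 16.7, while Nr1h3 had 4.83 and 4.98. Abcg1 had 8.00 and 5.53, Abca1 24.5 and 21.0, and Mylip 9.23 and 8.17. Insig2 had 20.5 and 14.9, while Insig1 had 39.3 and 39.8, Scap 41.3 and 43.9, and Stard4 19.2 and 21.1. Of the 5 genes of the LXR side, 4 had a lower mean with IL-1β, as did 62.3% of all genes. The glial, neuronal, smooth muscle and fibroblast marker sums given above were also lower with IL-1β. All neuronal markers were lower, but Gfra2, Acta2, Tagln, Actg2, Col1a1, Lum and Fbln1 of the other lists were higher. The 5 macrophage markers with a row summed to 144 in vehicle and 159 with IL-1β, mostly through Lyz2 (113 and 137). Their median was 8.45 in vehicle and 3.53 with IL-1β. The part of these cell types in the values was not tested.

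Levels of EGCs and BMDMs come from tables that were normalised separately, so they are only set side by side. Of the 18 synthesis genes, 15 had a higher mean in vehicle EGCs than in BMDMs in RPMI, compared with 61.3% of the 10320 genes in both tables. On the LXR side 4 of 5 were higher in the macrophages, as for Abca1, with 24.5 in EGCs and 104 in BMDMs, and Nr1h3, with 4.83 and 26.8. The exception was Nr1h2, with 28.2 and 22.7.

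The position of some of these genes may bear on their counts, because the reads come mostly from the 3′ end of a transcript. In GENCODE vM21 (GRCm38), 5 of the 32 genes have a gene of the other strand at their 3′ end. The kit marks strand, but its use in the counting is not stated. Cyp51 (minus strand of chromosome 5, 4081145 to 4104746) meets Akap9. Means of Akap9 were 78.2, 61.9 and 65.1 in RPMI, CM-Veh and CM-IL1, and 109 and 107 in EGCs. Fdft1 (minus strand of chromosome 14, 63145150 to 63179578) meets the abundant Ctsb, with 5776, 5558 and 5010. Srebf1 (minus strand of chromosome 11, 60199089 to 60222581) meets Rai1, with 12.6 and 10.1 in EGCs and 8.03, 14.8 and 13.6 in BMDMs. Mvd meets Gm20388, with 19.8, 24.0 and 24.9, and Lss meets 4930483K19Rik, for which the tables used here list no value. Whether reads of these neighbours enter the means of the 5 genes was not tested.

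Genes around the pathway were described by 6 lists of 86 genes, also chosen with earlier results of these data known. None of these lists had a median that lay as far above the shift of all genes with CM-Veh as the synthesis genes, which lay 0.59 above it on the log2 scale. The fatty acid genes beside Fasn, Acaca and Acly came next, 0.05 above it, with 1 of 15 higher and 3 lower (6.67% and 20%, background 8.00% and 10.8%). Of 12 genes of the isoprenoid branch, which leaves the pathway at farnesyl diphosphate, 2 were higher (16.7%) and 0 lower, and Nus1, a subunit of the enzyme that makes dolichol, had means of 36.1, 64.6 and 64.9. Of 11 genes of SREBP processing and escort, 0 passed the limit with CM-Veh. With CM-IL1 against RPMI 2 of them were lower (18.2%, background 22.4%), among them Mbtps1, the protease that makes the first cut in SREBPs, with means of 34.7 in RPMI and 20.5.

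**Figure D4:**
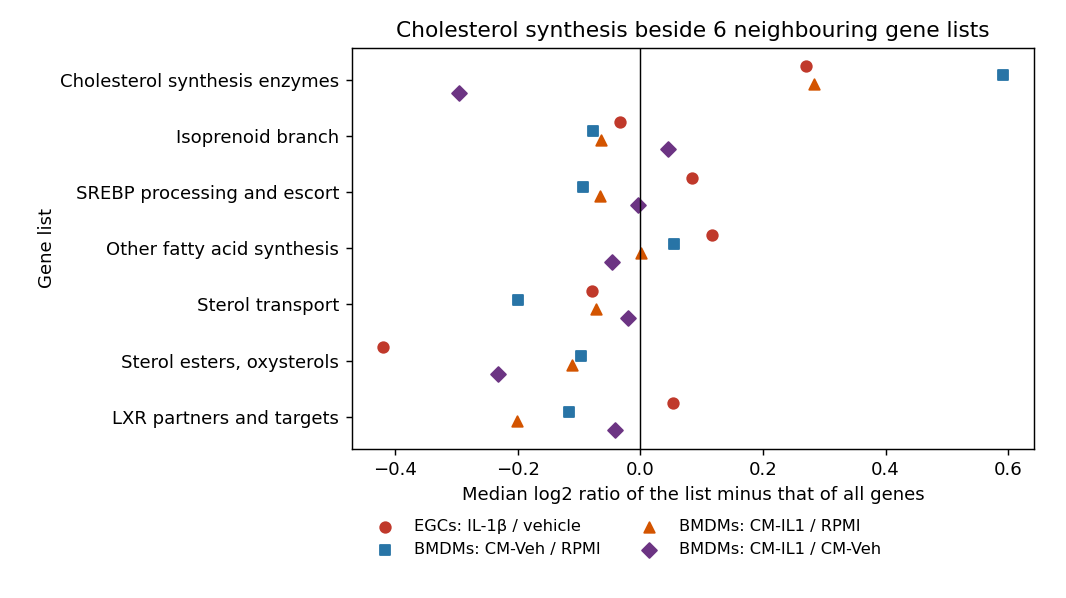
Median log2 ratio of each gene list minus the median of all genes (horizontal axis) in the 4 comparisons (symbols), for the 18 cholesterol synthesis genes and 6 neighbouring lists (rows). The synthesis genes lie farthest to the right with CM-Veh against RPMI, at 0.59, and farthest to the left of the 7 lists with CM-IL1 against CM-Veh, at −0.30.

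Of 16 genes of sterol transport, 0 were higher and 2 lower with CM-Veh, and 0 higher and 4 lower with CM-IL1, against RPMI. The lower shares, 12.5% and 25%, were close to the background of 10.8% and 22.4%. Stard5, a sterol carrier, had means of 23.8, 11.4 and 7.52, Osbpl11, an oxysterol-binding-protein relative, 23.6, 13.7 and 8.87, and Lipa, the lysosomal lipase that frees cholesterol from its esters, 939, 724 and 562. Scarb2, a lysosomal membrane protein, had 128, 98.8 and 75.9. Cyp27a1, the mitochondrial sterol hydroxylase that makes an oxysterol LXR ligand, had 12.3, 5.04 and 3.54, a 2.45-fold and 3.49-fold lower mean. In these 5 genes the order was RPMI, CM-Veh, CM-IL1 from highest to lowest, but they were named because they were lower than in RPMI. Among all genes the mean was highest in RPMI in 50.4% and lowest with CM-IL1 in 56.3%.

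Among 17 LXR partners and targets, 1 was higher and 2 lower with CM-Veh, and 1 higher and 5 lower with CM-IL1, against RPMI. These shares, 5.88% and 11.8% with CM-Veh and 5.88% and 29.4% with CM-IL1, lay near the background of 8.00%, 10.8%, 8.46% and 22.4%. Arl4c, a known LXR target, had means of 59.3, 202 and 287, the largest difference of any listed gene in macrophages. Rxrb, which encodes a dimer partner of LXRs, had 23.6, 13.8 and 9.41, and Ncoa2, a coactivator, had 16.7, 9.46 and 8.92. The coactivator Ncoa1 had 13.8, 10.3 and 8.17, and Lpcat2, which remodels phospholipids, 23.3, 17.8 and 14.3.

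Among fatty acid genes, Acsl4, which activates arachidonate, had means of 48.4, 92.9 and 106. Mid1ip1, a regulator of acetyl-CoA carboxylase, had 27.2, 17.7 and 11.4. A desaturase and an elongase gene were lower with CM-IL1 against RPMI, Fads1 with 32.2, 32.7 and 20.7 and Elovl5 with 36.9, 29.9 and 23.2. This list thus held genes in both directions.

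In EGCs no gene of the 6 lists was higher past the limit with IL-1β (background 4.25%), and the share that was lower ran from 0 to 25% in 5 of the lists, beside a background of 21.2%. In the list of sterol esters and oxysterols 2 of 5 genes were lower. Syvn1, a ubiquitin ligase of the endoplasmic reticulum, had a mean of 15.1 in vehicle and 0.26 with IL-1β, and Erlin1, a membrane protein that binds SREBP complexes and is known to restrain them, had 14.0 and 3.75. Nus1 had 64.7 and 27.9, the opposite of its direction in macrophages. Ncoa1 had 14.3 and 6.66, Ncoa2 16.5 and 9.34, and Lpcat2 29.1 and 18.0. Lower as well were 3 fatty acid genes, Acss2 with 11.0 and 6.89, Fads2 with 158 and 101, and Mid1ip1 with 72.3 and 47.1. Among the transport genes 0 of 16 passed the limit.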

How the data were processed

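The authors sequenced RNA of EGC and BMDM cultures as 18 libraries of 3′ ends, with strand information. The submitters' processing notes name cutadapt, STAR, Partek and mm10, with no versions. The authors' deposited tables hold a least-squares mean per gene and group, a scaled signal that is not stated to be CPM or TPM, and 0 columns of values per sample, so depth, precision and spread are unknown. They also hold the authors' p-values, FDR values, ratios and folds of each comparison, which were not used. The planned count test could not be run on means.

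Ratios of the authors' means were computed without a pseudocount for genes with a mean of at least 1 in a group (13445 and 11200), with Python 3.11.15, numpy 2.4.6 and pandas 2.3.3, and were tested on simulated data. Genes past 1.5-fold were counted. The 32 members and all lists were chosen with earlier results of these data known. From the other lists, genes past 1.5-fold with a mean of at least 10 in a compared group were named, at most 4 per list and direction. Alternatives were a 2-fold limit, a pseudocount of 1, no filter, a mean of at least 10, centring on the median gene and rescaling without the 10 highest genes. Positions came from GENCODE vM21 and promoters from RefSeq (GRCm38.p6). Some genes of the pathway are not reported here.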

Additional observations from a re-analysis of the deposited data

How the results depend on the processing

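Over the 32 genes and the 18 synthesis genes, 104 values under the 6 alternatives stayed within 1.5 times the count given, or within 0.1 of the median log2 ratio, and 32 did not, while no ratio of a single gene past the limit changed direction. A 2-fold limit left 0 genes (0 synthesis) higher in EGCs, 3 (2) higher with CM-Veh, 0 (0) higher and 1 (1) lower with CM-IL1 against RPMI, and 1 (1) lower between the media. A pseudocount of 1 left 5 synthesis genes higher with CM-Veh, and 3 genes (1) lower with CM-IL1 against RPMI. A mean of at least 10 left 0 synthesis genes lower in EGCs, 3 genes (0) lower with CM-IL1 against RPMI and 5 (3) lower between the media. Centring on the median gene gave 3 genes (2) higher in EGCs with medians of 0.20 (0.27), 6 (4) higher and 3 (1) lower with CM-IL1 against RPMI with medians of 0.21 (0.28), and 5 (3) lower between the media with medians of −0.26 (−0.30). Between the media these were not the same synthesis genes. A mean of at least 10 left Hmgcs1, Fdft1 and Hsd17b7, and centring left Idi1, Lss and Dhcr7. No synthesis gene passed under both, while Insig1 and Mylip did. Dropping the filter or rescaling without the 10 highest genes moved none of these counts by more than 1.5 times and no median by 0.1 or more. The share of all genes past the limit was not computed under the alternatives, so these counts stand without a background. No paired analysis was possible because the tables hold group means only, and leaving out single libraries was not run for the same reason. The depth of the libraries is unknown, so what it limits cannot be given, and ratios of genes with means of a few units, such as Idi1, Lss and Srebf1, carry no known error.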
